A study of Homo sapiens with 20 samples.

Results

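The 4 human HOX clusters were followed in the chromatin loop lists of 4 glioblastoma cell lines. A member was any listed pair of 5 kb anchors with at least 1 anchor in the hg19 windows chr7:27130000-27255000 (HOXA), chr17:46600000-46810000 (HOXB), chr12:54330000-54450000 (HOXC) or chr2:176940000-177060000 (HOXD). Together the windows held 38 HOX genes and 3840 of the 572000 anchor pairs found in at least 1 list: 1553 at HOXA, 1332 at HOXB, 336 at HOXC and 619 at HOXD. The choice of the windows used no measured value.

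H4 and 42MGBA are established human glioblastoma lines that carry their own inactivating mutation of STAG2, which encodes a subunit of cohesin, the ring complex that extrudes chromatin loops. Their isogenic derivatives, named H4 88-1 and 42MGBA 53-1, had that mutation corrected by gene editing, with 1 derivative line per parent, so that correction and the history of that line cannot be told apart. All 4 lines were grown without further treatment in serum-containing medium. Hi-C, which counts ligated contacts between distant DNA fragments, was made in 2 replicates per line, but each deposited list pools both, so every strength below is 1 pooled value with no replicate error and no count behind it. The lists hold no readout of the STAG2 mutation itself, and they give no read depth. A list ends after the 300000 pairs of highest strength, which put its lower limit at a loop strength of 4.14 in H4 and 4.44 in H4 88-1, against 4.49 in 42MGBA and 4.28 in 42MGBA 53-1, so that a pair missing from a list had a lower value there, not necessarily none.

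HOX genes encode homeodomain transcription factors that give cells their position along the head-to-tail axis. In each cluster the genes lie in order, from paralog group 1 at the end active first and in anterior tissue to group 13 at the end active last and in posterior tissue. Polycomb proteins keep the clusters silent where they are not needed, distant enhancers on both sides switch parts of them on, and CTCF sites between the genes separate the parts. Cohesin halts at CTCF bound to its motif, so the anchors of many loops carry that motif. Below, the group 1 side is the flank next to the anterior genes and the group 13 side is the flank next to the posterior genes. Groups 1 to 4 are called anterior, 5 to 8 central and 9 to 13 posterior.

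The core of the CTCF motif, in which CCA, AG and GGC follow each other with 2 free bases in each gap, was searched on both strands in hg19. It occurred in 27 of the 122 HOX anchors (22.1%) and in 16.1% of the 128561 anchors of all lists. The matches below lie in anchors that turn out to matter in the results: the anchors around HOXA9 and HOXA10 and around HOXD10 and HOXD11, where the contacts of these clusters change side, and the anchors of the strongest HOXA, HOXB and HOXD pairs. Each line gives 20 bases on either side, read on the strand of the match, with the motif in capitals.

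HOXA7 and HOXA9 anchor, chr7:27200757-27200768, minus strand: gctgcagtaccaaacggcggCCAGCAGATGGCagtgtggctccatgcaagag
HOXA9 and HOXA10 anchor, chr7:27211388-27211399, plus strand: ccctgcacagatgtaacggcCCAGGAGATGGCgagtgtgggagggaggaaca
HOXA9, HOXA10 and HOXA11 anchor, chr7:27219525-27219536, minus strand: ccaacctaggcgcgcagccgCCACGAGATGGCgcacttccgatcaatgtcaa
HOXD11 and HOXD12 anchor, chr2:176962487-176962498, minus strand: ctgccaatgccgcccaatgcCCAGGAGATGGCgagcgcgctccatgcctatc
HOXD10 to HOXD12 anchor, chr2:176970945-176970956, minus strand: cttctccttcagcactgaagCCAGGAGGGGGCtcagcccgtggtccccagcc
JAZF1 intron anchor, chr7:27963010-27963021, minus strand: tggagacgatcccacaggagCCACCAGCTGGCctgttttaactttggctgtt
HOXB3 and HOXB5 anchor, chr17:46668345-46668356, minus strand: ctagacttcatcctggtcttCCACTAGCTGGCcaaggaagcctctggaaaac
HOXD3 anchor, chr2:177005373-177005384, plus strand: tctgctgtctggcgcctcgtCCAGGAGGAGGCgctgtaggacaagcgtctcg

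A match is a description of the letters and shows no binding. Of the 95 summits, meaning pairs that were the strongest listed within 25 kb of both anchors in at least 1 list, 6 had the motif in both anchors and 54 had it in neither.

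The promoter of HOXA13 is shown because this gene anchored more listed pairs than any other HOXA gene. It was read from hg19 and runs from 250 bases before the start to 50 after it on the gene's strand, with the letters GGGCGG in capitals, as well as TATAAA, on either strand. It held 44 CG dinucleotides, where the median was 15 over the 38 HOX promoters and 18 over all 20140 protein-coding promoters. GGGCGG was found in 15 of the 38 HOX promoters (39.5%) and in 52.2% of all promoters, while TATAAA was found in 5 (13.2%) against 10.9%. The CTCF core was found in none of the 38 against 2.7%.

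HOXA13 promoter, chr7:27239661-27239960, minus strand: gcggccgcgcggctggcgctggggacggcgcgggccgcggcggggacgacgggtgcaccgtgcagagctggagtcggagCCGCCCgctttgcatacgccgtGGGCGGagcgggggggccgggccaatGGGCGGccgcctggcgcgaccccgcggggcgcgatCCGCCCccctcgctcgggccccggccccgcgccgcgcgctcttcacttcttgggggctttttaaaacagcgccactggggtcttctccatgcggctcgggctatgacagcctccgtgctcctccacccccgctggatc

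The HOX windows held 3038 listed pairs in H4 (1.01% of the list) and 3006 in H4 88-1 (1.00%), against 2069 in 42MGBA (0.690%) and 1920 in 42MGBA 53-1 (0.640%). The 2 H4 lists thus resembled each other more than they resembled either 42MGBA list, and the pattern was the same at HOXA and HOXB. HOXA held 1332 pairs in H4 and 1207 in H4 88-1, against 988 in 42MGBA and 874 in 42MGBA 53-1. HOXB held 1004 in H4 and 1002 in H4 88-1, against 492 in 42MGBA and 473 in 42MGBA 53-1. HOXC alone of the 4 clusters had more pairs in each STAG2-corrected line than in its parent, with 234 in H4 and 301 in H4 88-1, against 161 in 42MGBA and 196 in 42MGBA 53-1. HOXD held 468, 496, 428 and 377 in the same order.

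Of the HOX pairs, 1352 (35.2%) were in all 4 lists, where 19.3% of all pairs were. A further 838 (21.8%) were in both H4 lists and neither 42MGBA list, against 11.3% of all pairs, and 135 (3.52%) were in both 42MGBA lists and neither H4 list, against 10.7%. The split by STAG2 status was small: 41 pairs (1.07%) were in both mutant lists alone, against 1.57% of all pairs, and 44 (1.15%) in both corrected lists alone, against 1.33%. At HOXC, 22 of 336 pairs (6.55%) were in both corrected lists alone.

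Most HOX pairs had 1 anchor outside their cluster. No listed pair had both anchors inside HOXA or inside HOXD in any list, and HOXC had 4 such pairs in 42MGBA, 2 in 42MGBA 53-1 and none in the H4 lists. HOXB differed between the lines, with 16 internal pairs in H4 and 3 in H4 88-1, against 95 in 42MGBA and 76 in 42MGBA 53-1. The internal pair between HOXB2, a hindbrain patterning gene, and HOXB3 (chr17:46617551-46622485 and chr17:46646568-46651321, 28.9 kb apart) was unlisted in both H4 lines and had strengths of 9.07 in 42MGBA and 6.42 in 42MGBA 53-1. The median pair spanned 637 kb at HOXA, 305 kb at HOXB, 199 kb at HOXC and 515 kb at HOXD in H4, and 527, 214, 189 and 511 kb in 42MGBA 53-1. The median of the whole list was 348 kb in H4, 312 kb in H4 88-1, 307 kb in 42MGBA and 257 kb in 42MGBA 53-1.

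Which flank a HOX gene contacted followed its place in the cluster. Start sites of posterior HOXA genes had 88.7% of their listed pairs on the group 13 side in H4 and 88.8% in H4 88-1, against 92.8% in 42MGBA and 94.4% in 42MGBA 53-1. For anterior HOXA genes the share was 7.84% in H4, 3.81% in H4 88-1 and 0% in both 42MGBA lines. In H4, 28 of these 29 pairs were at HOXA3, whose starts reach an anchor of HOXA6 and HOXA7. Walking from the group 1 end, the first anchor with more group 13 than group 1 side pairs was chr7:27207699-27212498, at HOXA9 and HOXA10, in H4, H4 88-1 and 42MGBA 53-1, and the next anchor, chr7:27212499-27217315, in 42MGBA. In H4 that anchor had 12 pairs on the group 1 side and 24 on the group 13 side, and in H4 88-1 it had 12 and 23. At HOXA the switch therefore fell at the same place in mutant and corrected H4 cells, within 1 anchor of that in the 42MGBA lines. The motif matches around HOXA9 and HOXA10 were chosen for printing by their place at this switch. In all, 7 of the 27 HOXA anchors had a match.

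**Figure D1:**
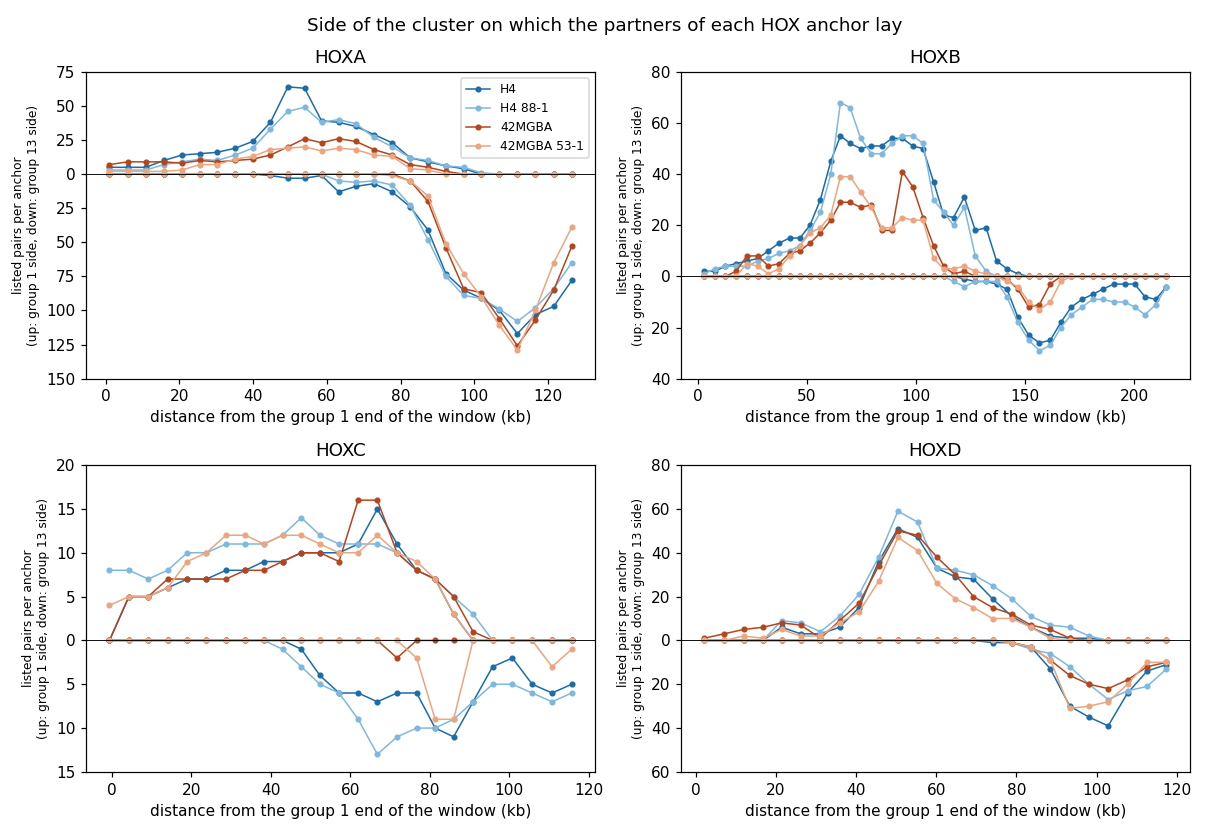
Listed pairs per 5 kb anchor along each HOX window in the 4 cell lines, plotted against the distance in kb from the group 1 end. Pairs on the group 1 side point up and pairs on the group 13 side point down, and in HOXA and HOXD the 4 lines change side within a few anchors of each other.

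HOXD also changed side among its posterior genes. The first anchor with mostly group 13 side pairs was chr2:176966599-176971476, at HOXD10 to HOXD12, in H4, 42MGBA and 42MGBA 53-1, and chr2:176961781-176966598, at HOXD11 and HOXD12, in H4 88-1. Posterior HOXD starts had 64.2% of their pairs on the group 13 side in H4 and 41.2% in H4 88-1, against 54.2% in 42MGBA and 70.8% in 42MGBA 53-1, so the share was lower in the corrected H4 line and higher in the corrected 42MGBA line. HOXD11, one of the posterior limb genes, had 46 group 13 side pairs in H4 and 22 in H4 88-1, against 28 in 42MGBA and 43 in 42MGBA 53-1. In HOXB no gene but HOXB13, the most posterior one and a regulator of prostate cell identity, had more pairs on the group 13 side than on the other. HOXB13 had 17 pairs in H4, 26 in H4 88-1 and none in the 42MGBA lists, and all of them lay on the group 13 side. HOXC switched at chr12:54363985-54368347, at HOXC11, in H4 and 42MGBA 53-1 and further towards the centre, at chr12:54378222-54383195 (HOXC6 and HOXC10), in H4 88-1, so there the place differed between the mutant and corrected H4 lines. In HOXC, posterior starts had 48.98% of their pairs on the group 13 side in H4 and 56.1% in H4 88-1, against 2.30% in 42MGBA and 24.5% in 42MGBA 53-1.

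Every HOX gene had a listed pair within 3 kb of a start site in at least 1 list, and 34 of the 38 had one in all 4 lists. The exceptions were HOXB13, HOXC12, HOXC13 and HOXD1, of which HOXD1 had 4 pairs in 42MGBA and none elsewhere. HOXC12 had 5 pairs in H4, 10 in H4 88-1 and none in the 42MGBA lists, and HOXC13 had 11, 13, 0 and 4 in the order H4, H4 88-1, then 42MGBA and 42MGBA 53-1. Starts that lie close together can share an anchor, so the counts of neighbouring genes are not independent.

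Among HOXA genes, HOXA13, a regulator of distal limb and genitourinary development, had the most pairs, with 320 in H4 and 305 in H4 88-1, against 339 in 42MGBA and 340 in 42MGBA 53-1. HOXA11, a limb and uterine gene, had 259, 267, 227 and 214 in the same order, and HOXA10, which acts in the uterus and in blood progenitors, had 254, 268, 177 and 152. HOXA13 thus had slightly more pairs in the 42MGBA lists than in the H4 lists, while HOXA11 and HOXA10 had fewer. HOXA3, an anterior gene of the pharyngeal region with 6 annotated starts over 38.7 kb, had 292 pairs in H4 and 227 in H4 88-1. It had 133 in 42MGBA and 104 in 42MGBA 53-1.

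HOXB3, with 12 annotated starts over 51.0 kb, had the most HOXB pairs, with 462 in H4 and 448 in H4 88-1, against 309 in 42MGBA and 322 in 42MGBA 53-1. HOXB7 had 255, 235, 114 and 80, and HOXB6 had 222, 204, 124 and 116. At HOXC the best connected genes were HOXC6 (4 starts over 37.8 kb), with 96, 117, 83 and 91 pairs, and HOXC10, a posterior gene of the lumbar region, with 56, 65, 45 and 34. HOXC4 and HOXC9 tied for the third place with 173 pairs summed over the lists. At HOXD, HOXD3 (5 starts over 27.5 kb) led with 158 pairs in H4 and 190 in H4 88-1, against 170 in 42MGBA and 139 in 42MGBA 53-1. It was followed by HOXD12 with 82, 53, 51 and 71 and HOXD8 with 62, 65, 68 and 45.

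The strongest HOXA pair of H4 joined the HOXA13 exons (chr7:27236793-27241554, an anchor that also holds the start of the long noncoding RNA HOTTIP) to an intron of JAZF1 (chr7:27959619-27964386), which encodes a zinc finger protein, 723 kb away. The strength of this pair was 26.0 in H4 and 25.6 in H4 88-1, against 14.0 in 42MGBA and 15.3 in 42MGBA 53-1. The strongest in H4 88-1 joined a HOXA3 intron (chr7:27174625-27179202) to the start region of SKAP2 (chr7:26892481-26897417), an adaptor protein gene, with 25.1 in H4 and 26.8 in H4 88-1, against 11.01 in 42MGBA and 9.90 in 42MGBA 53-1. Both pairs were well above the 42MGBA values in both H4 lines, and neither was called within an isogenic pair by the rule given below.

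The same HOXA13 anchor had its strongest 42MGBA pair with an intron of TAX1BP1 (chr7:27815849-27820779), an autophagy receptor gene, where the strengths were 17.3 in H4 and 18.6 in H4 88-1, against 17.4 in 42MGBA and 15.4 in 42MGBA 53-1. Its strongest 42MGBA 53-1 pair was with an intron of HIBADH (chr7:27613298-27618055), an enzyme of valine breakdown, with 12.2 in H4 and 15.4 in H4 88-1, against 15.8 in 42MGBA and 17.7 in 42MGBA 53-1. So 3 partners of 1 HOXA13 anchor differed in order between the lines: JAZF1 led in the H4 lines, TAX1BP1 in 42MGBA and HIBADH in 42MGBA 53-1.

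At HOXB the leading pair of H4 88-1 and 42MGBA joined the HOXB3 and HOXB5 exons (chr17:46664966-46669701) to an intron of SKAP1 (chr17:46412370-46417322), a T cell adaptor gene, 252 kb away. The strength of this pair was 20.7 in H4 and 25.1 in H4 88-1, against 16.8 in 42MGBA and 14.96 in 42MGBA 53-1. The neighbouring anchors to the same SKAP1 intron led in the other lists, with 21.5 in H4 at chr17:46660864-46664965 and 15.9 in 42MGBA 53-1 at chr17:46669702-46674660.

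At HOXC, 1 intergenic stretch 188 to 222 kb away, nearest to SMUG1, a DNA repair glycosylase gene, held the strongest partner in every list. The anchor of HOXC6 and HOXC10 (chr12:54378222-54383195) paired with chr12:54595661-54600563 at 10.8 in H4 and 11.1 in H4 88-1, against 14.3 in 42MGBA and 11.1 in 42MGBA 53-1. The HOXC8 anchor (chr12:54397529-54402159, in a HOXC6 intron) paired with chr12:54585930-54590751 at 8.97 in H4 and 14.9 in H4 88-1, against 9.95 in 42MGBA and 9.92 in 42MGBA 53-1. The last pair stood out in H4 88-1, with 3 lines close together and 1 higher.

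At HOXD the HOXD3 anchor (chr2:176999668-177004664) met 2 close partners between the cluster and MTX2, a mitochondrial membrane protein gene. With chr2:177500900-177505498, which holds starts of the noncoding RNAs LINC01116 and LINC01117, the strengths were 19.4 in H4 and 21.7 in H4 88-1, against 13.8 in 42MGBA and 14.6 in 42MGBA 53-1. With chr2:177515432-177520405, a little further on, they were 9.21 in H4 and 13.4 in H4 88-1, against 17.5 in 42MGBA and 13.5 in 42MGBA 53-1, so the far partner was the stronger one in 42MGBA and the near one in the other lines. On the other flank, HOXD13 (chr2:176952223-176957017) met an intergenic anchor nearest to ATP5MC3 (chr2:176229644-176234310, 723 kb away), an ATP synthase subunit gene, at 12.3, 11.7, 12.1 and 12.1, the narrowest range of the pairs named here.

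**Figure D2:**
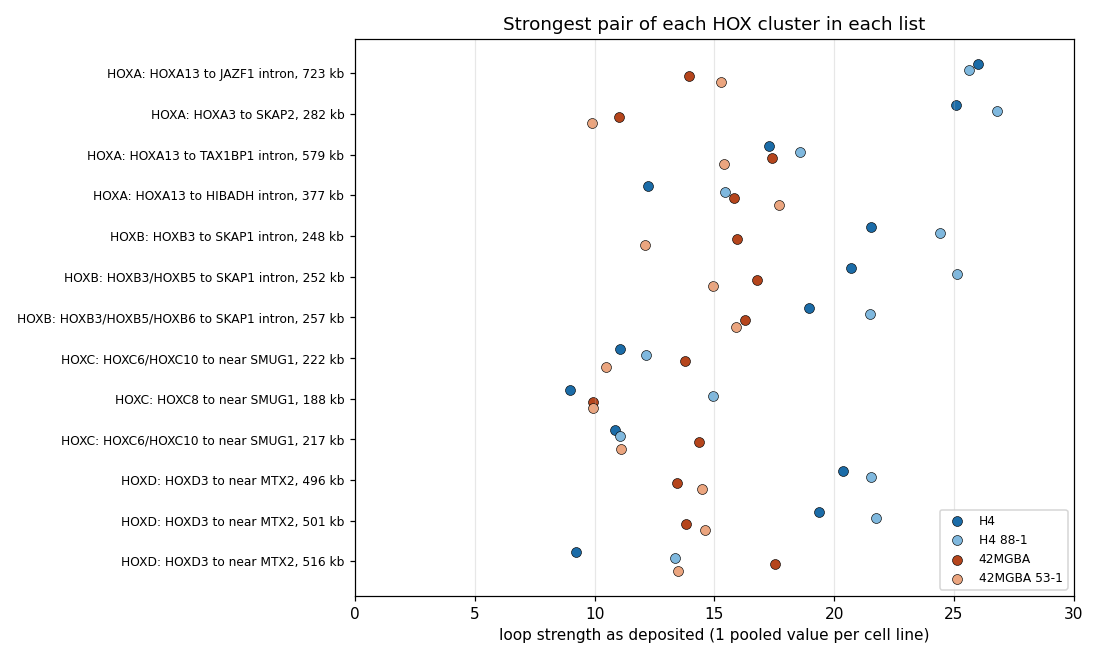
Loop strength, as deposited, of the strongest pair of each HOX cluster in each list, with 1 point per cell line. The HOXA13 to JAZF1 and HOXA3 to SKAP2 pairs lie above 25 in both H4 lines and below 16 in both 42MGBA lines, and the HOXC8 pair stands at 14.9 in H4 88-1 alone.

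**Figure D3:**
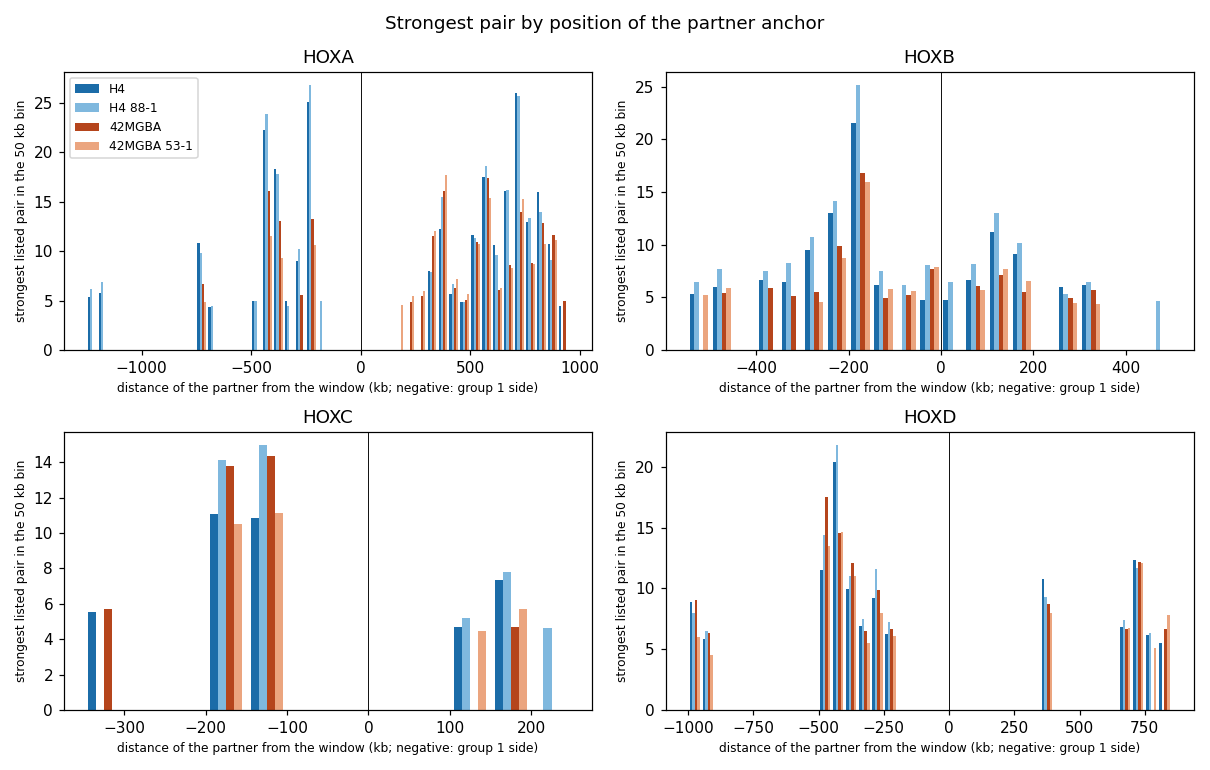
Strongest listed pair in each 50 kb bin of partner position, by distance in kb from the edge of the HOX window, with negative values on the group 1 side. The tallest HOXA bars stand at the SKAP2 and JAZF1 partners in both H4 lines, and the tallest HOXB, HOXC and HOXD bars all lie on the group 1 side.

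The first question of the design was whether correcting STAG2 changed HOX loops. The 100000 strongest pairs of both lists were merged, a pair missing from a list took the lowest strength of that list, and a regression line through the origin was fitted. A pair was called where the z-score of its distance from the line passed 1.96 in either direction. The rule ranks pairs within 1 comparison of pooled lists and tests nothing against replicates, so the share of HOX pairs called is read against the share of all merged pairs called.

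In H4 88-1 against H4, 50 of 1770 merged HOX pairs were called stronger in the corrected line (2.82%, against 1.94% of all merged pairs) and 14 weaker (0.791%, against 2.17%), while 4.11% of all merged pairs were called in either direction. HOXC held 23 of the stronger pairs among its 151 merged pairs (15.2%) and none of the weaker. HOXA had 17 stronger and 12 weaker of 883, HOXB 8 and 0 of 509, and HOXD 2 and 2 of 227. The HOXB and HOXD shares of stronger calls were under that of all pairs, and the HOXA share (1.93%) was about the same. Over all HOX pairs the stronger share depended on the setting. It stayed above that of all pairs with an intercept (128 of 1770, against 2.88%) or 200000 pairs merged (105 of 2710, against 2.43%). It did so too among pairs in both lists (55 of 1743, against 2.16%). By the 1.5-fold rule it was lower (4.86%, against 8.74%), as on the log2 scale (12 of 1770, against 2.01%). It was also lower when centred by chromosome (35, against 2.26%) and by size (15, against 2.36%).

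At HOXC, 145 of the 151 merged pairs had a higher strength in H4 88-1 than in H4, with a median log2 ratio of 0.47. The median of all merged pairs was 0.07 and that of chromosome 12 was 0.13, with 2.73% of chromosome 12 pairs called stronger. The part of the shift along chromosome 12 in the HOXC values was not tested. The 23 called pairs spanned 165 to 213 kb, all on the group 1 side, and had strengths of 5.79 to 9.38 in H4 (median 8.41) and 9.53 to 14.9 in H4 88-1 (median 12.5). Their ratios ran from 1.41 to 1.69.

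HOXC8, a gene of thoracic patterning, took part in 12 of the called pairs out of 19 merged, HOXC6 in 11 of 79, HOXC9 in 5 of 33, HOXC4 in 4 of 34 and HOXC5 in 1 of 14. HOXC10 and HOXC11 had none of 38 and of 20. The largest z-score was 3.29, for the HOXC8 pair near SMUG1 given above, and a second HOXC8 pair, with chr12:54600564-54605357, rose from 8.34 in H4 to 14.1 in H4 88-1 (z = 3.18) and stood at 10.5 in 42MGBA and 8.71 in 42MGBA 53-1. SMUG1 itself had pairs of HOXC at its start: 36 listed in H4 and 57 in H4 88-1, against 35 in 42MGBA and 60 in 42MGBA 53-1, of which 6 of 31 merged pairs were called stronger in H4 88-1 and 0 of 25 in 42MGBA 53-1. The z-score of the log2 ratio, which weights weak and strong pairs alike, called 2 of the 151 HOXC pairs stronger (1.32%, under the 2.01% of all pairs). A plain 1.5-fold rule, which cuts the same ratio at a lower value, called 38 stronger (25.2%, against 8.74%) and 0 weaker (against 2.16%). The excess at HOXC thus depends on the scale and on the threshold. With log2 ratios centred by chromosome, 1 HOXC pair was called stronger (0.662%, against 2.26%).

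The 42MGBA lines did not show this excess. In 42MGBA 53-1 against 42MGBA, 7 of 1036 merged HOX pairs were called stronger in the corrected line (0.676%, against 1.61% of all merged pairs) and 9 weaker (0.869%, against 2.45%), where 4.06% of all pairs had a call. By the 1.5-fold rule none was stronger (against 1.46% of all pairs) and 47 were weaker (4.54%, against 10.2%). With an intercept 26 of 1036 were called stronger (against 2.58% of all pairs) and 5 weaker (against 1.73%). The balance thus turned, as it did over all merged pairs. On the z-score of the log2 ratio, after centring by chromosome and among pairs of similar size, none was called stronger (against 1.51%, 2.14% and 1.86% of all pairs). None of the 106 merged HOXC pairs and none of the 219 merged HOXB pairs was called in either direction. The 23 HOXC pairs called in H4 88-1 were all merged here, with z-scores of -0.930 to 1.45, and 12 of them were stronger in 42MGBA 53-1. The difference between the isogenic pairs was not tested, as there is 1 pooled value per line.

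**Figure D4:**
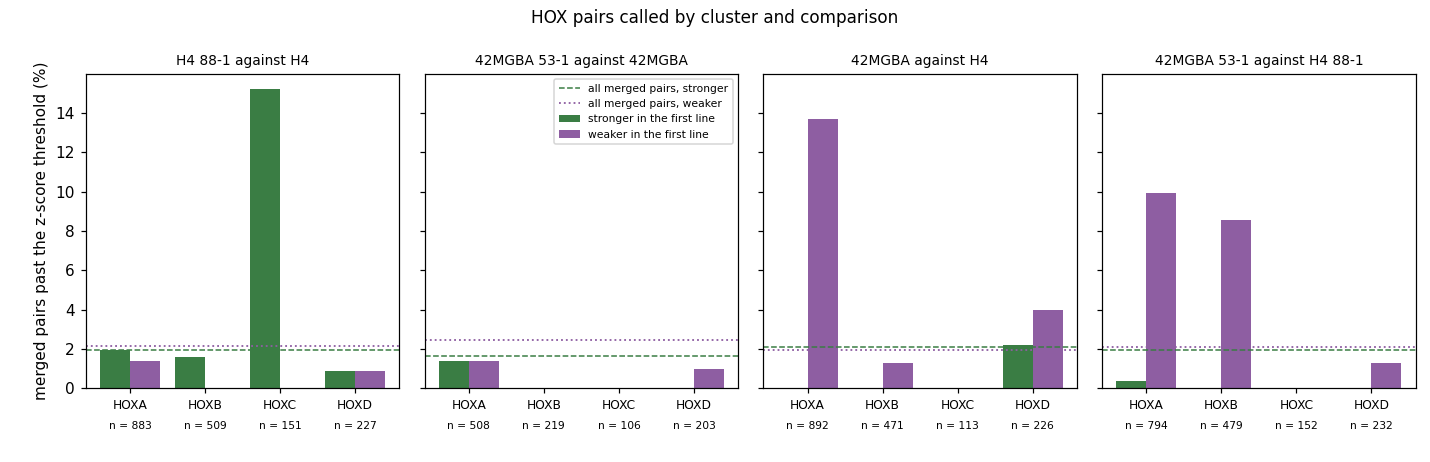
Share of merged HOX pairs called stronger or weaker in the first line named, by cluster and comparison, with dashed (stronger) and dotted (weaker) lines for the share of all merged pairs. HOXC stands at 15.2% stronger in H4 88-1 against H4, and HOXA at 13.7% weaker in 42MGBA against H4.

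**Figure D5:**
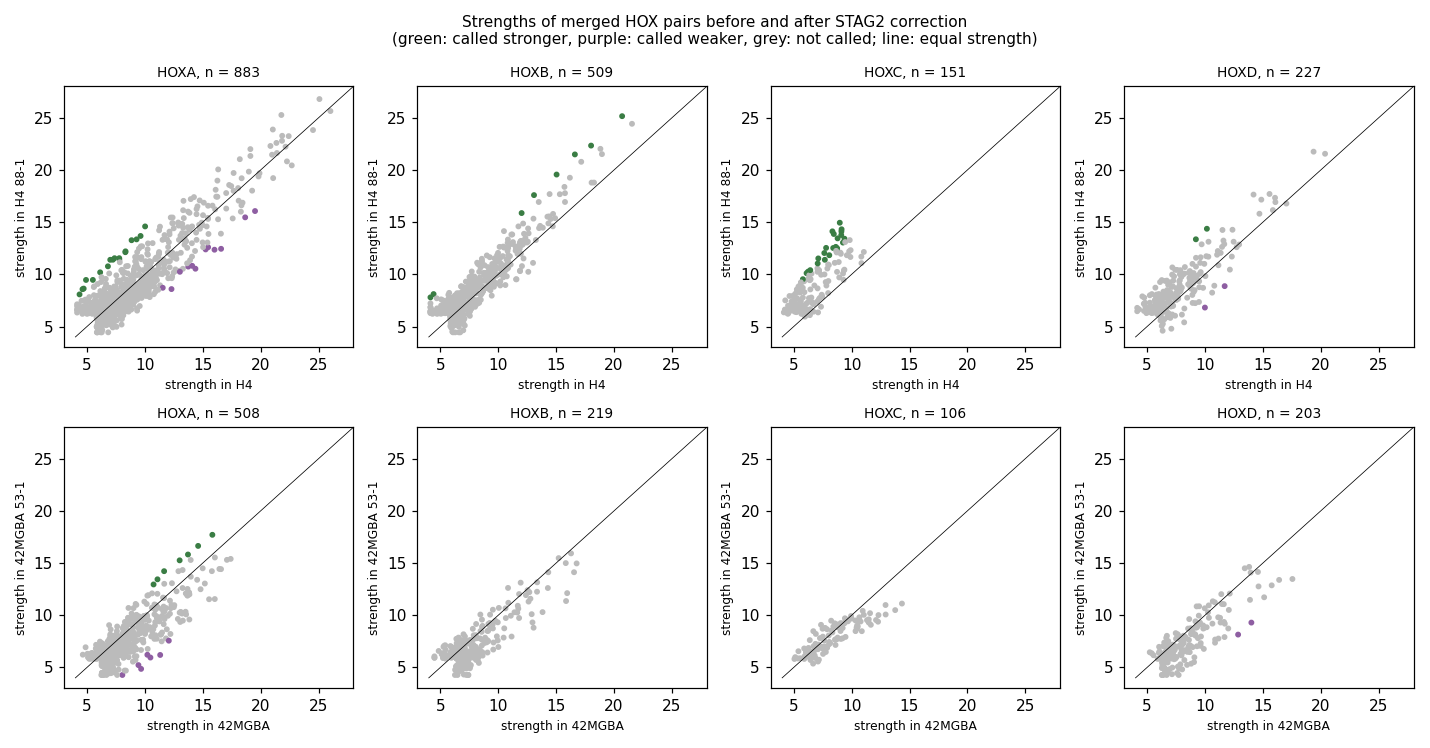
Strength of each merged HOX pair in the corrected line (y axis) against its parent (x axis), with the H4 lines above and the 42MGBA lines below, called pairs in green (stronger) or purple (weaker). A pair missing from 1 list is drawn at the lowest strength of that list, the line marks equal strength, and nearly all HOXC points lie above it in the H4 lines and around it in the 42MGBA lines.

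By the rule given above, HOXA had stronger and weaker pairs side by side in H4 88-1. The anchor of HOXA9, HOXA10 and HOXA11 (chr7:27217316-27222261) had a stronger pair with the TAX1BP1 intron after correction, at 4.92 in H4 and 9.46 in H4 88-1 (z = 2.5), with 7.86 in 42MGBA and 7.21 in 42MGBA 53-1. The same anchor had a weaker pair with the JAZF1 intron, at 16.6 in H4 and 12.4 in H4 88-1 (z = -2.83), with 9.99 in 42MGBA and 9.55 in 42MGBA 53-1. All 17 stronger pairs and 11 of the 12 weaker pairs of HOXA lay on the group 13 side. TAX1BP1 start sites had 5 of 72 merged HOXA pairs called stronger and 0 weaker (against 1.94% and 2.17% of all merged pairs). JAZF1 start sites had 0 stronger and 3 of 55 weaker, a share of weaker calls under that of chromosome 7, given next. The median log2 ratio was -0.04 at HOXA and -0.11 over chromosome 7, where 6.45% of merged pairs were called weaker and 0.738% stronger. The weaker calls of HOXA depended on the setting. There were 0 weaker and 64 stronger (7.25%, against 2.88% of all pairs) with an intercept. There were 0 and 32 (3.62%, against 2.26%) with log2 ratios centred by chromosome, and 0 and 11 (1.25%, against 2.36%) among pairs of similar size. With the 200000 strongest pairs merged there were 50 weaker (4.23%, against 2.60%) and 31 stronger (2.62%, against 2.43%). Among pairs present in both lists there were 18 weaker (2.06%, against 2.48%) and 18 stronger (2.06%, against 2.16%). The z-score of the log2 ratio called 3 weaker (0.340%, against 1.86%) and 6 stronger (0.680%, against 2.01%). The 1.5-fold rule called 3 (0.340%, against 2.16%) and 25 (2.83%, against 8.74%).

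HOXB and HOXD had few calls in the isogenic comparisons. At HOXB the highest z-score in H4 88-1 against H4 was at the HOXB3 and HOXB5 anchor with chr17:46407580-46412369 in SKAP1, at 16.6 in H4 and 21.5 in H4 88-1, against 12.4 in 42MGBA and 11.9 in 42MGBA 53-1 (z = 2.52 and 0.39 in the 2 isogenic pairs). HOXB3 had all 8 of the stronger pairs within reach of its starts. At HOXD the far HOXD3 partner rose in H4 88-1 (z = 2.20) and was lower in 42MGBA 53-1 than in 42MGBA without being called (z = -1.55). A HOXD8 pair with the same far anchor fell from 12.9 in 42MGBA to 8.14 in 42MGBA 53-1 (z = -2.25) and stood at 7.96 in H4 and 9.75 in H4 88-1.

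Calls in the same direction in both isogenic pairs were confined to HOXA13 among the 895 HOX pairs merged in both. Stronger in both corrected lines were 3 pairs (0.335%, against 0.119% of the 68322 pairs merged in both), each joining the HOXA13 region to an intron of HIBADH at chr7:27618056-27622923 or chr7:27622924-27627713. The strongest of them had 10.0 in H4 and 14.6 in H4 88-1, against 13.7 in 42MGBA and 15.8 in 42MGBA 53-1 (z = 2.44 and 2.09). The second had 7.78, 11.5, 11.1 and 13.4, and the third 8.33, 12.2, 10.7 and 12.9. These 3 pairs share or adjoin anchors and are not independent of each other. Weaker in both corrected lines was 1 pair (0.112%, against 0.25%), between the anchor next to HOXA13 (chr7:27241555-27246542) and the JAZF1 start region (chr7:28060129-28065133), at 13.02 in H4 and 10.2 in H4 88-1, against 12.1 in 42MGBA and 7.56 in 42MGBA 53-1 (z = -1.97 and -2.18). No HOX pair was called in opposite directions, against 0.155% and 0.0585% of all pairs. The changes of the 3 HIBADH pairs in the 42MGBA lines were modest, at 1.15 to 1.21-fold, and the z-score of the log2 ratio called none of these 4 pairs in either isogenic pair.

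HOXA13 had 5 stronger and 7 weaker of 271 merged pairs in H4 88-1, near the 1.94% and 2.17% of all merged pairs. In 42MGBA 53-1 it had 7 stronger and 3 weaker of 201 (against 1.61% and 2.45%). HOXA11 had 11 stronger and 3 weaker of 195 in H4 88-1, with the stronger share above and the weaker share under that of all pairs. It had none of 110 in 42MGBA 53-1.

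The second question was how the lines differ with the STAG2 state held fixed. These comparisons share lines with the isogenic ones. In 42MGBA against H4, both mutant, 137 of 1702 merged HOX pairs were called weaker in 42MGBA (8.05%, against 1.93% of all merged pairs) and 5 stronger (0.294%, against 2.11%), with 4.04% of all pairs called either way. HOXA held 122 of the weaker pairs among 892 (13.7%), HOXB 6 of 471, HOXD 9 of 226 and HOXC none of 113. In 42MGBA 53-1 against H4 88-1, both corrected, 123 of 1657 were called weaker (7.42%, against 2.09%) and 3 stronger (0.181%, against 1.92%; 4.01% of all pairs either way), with 79 weaker of 794 at HOXA, 41 of 479 at HOXB, 3 of 232 at HOXD and none of 152 at HOXC.

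The HOXA3 to SKAP2 pair had the lowest z-score of the HOXA pairs in both (-5.25 and -5.57) and was 2.28-fold and 2.70-fold weaker, where the largest fold at HOXA was 2.84 and 3.08. The HOXA13 to JAZF1 intron pair had z-scores of -4.52 and -2.99. Anterior HOXA genes had 52 of 200 merged pairs called weaker between the mutant lines and 46 of 169 between the corrected lines, and posterior genes had 62 of 543 and 25 of 514. At HOXD the near HOXD3 partner had a z-score of -2.15 and the far one 2.91 between the mutant lines, so 1 HOXD3 anchor had calls of both signs.

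The chromosomes moved with these results. The median log2 ratio of 42MGBA to H4 was -0.43 at HOXA and -0.42 over all chromosome 7 pairs, of which 7.86% were called weaker, and it was -0.44 at HOXB and -0.39 over chromosome 17. Between the corrected lines it was -0.59 at HOXA and -0.41 over chromosome 7, and -0.66 at HOXB and -0.58 over chromosome 17. After the median log2 ratio of each chromosome was subtracted, 10 of 1702 HOX pairs were called weaker (against 1.89% of all pairs) and 59 stronger (against 2.98%) in 42MGBA. In 42MGBA 53-1, 9 of 1657 were called weaker (against 2.02%) and 18 stronger (against 2.69%), so the direction of the HOX calls between lines turned. With an intercept in the regression it turned as well, to 37 stronger (against 3.78% of all pairs) and 2 weaker (against 0.190%) in 42MGBA. In 42MGBA 53-1 there were 34 stronger (against 3.71%) and 1 weaker (against 0.178%). Under both settings all merged pairs also had more stronger than weaker calls. The 1.5-fold rule kept the first direction of the HOX calls, with 475 weaker (27.9%, against 11.2% of all pairs) and 97 stronger (5.70%, against 26.1%) in 42MGBA. In 42MGBA 53-1 there were 794 weaker (47.9%, against 24.5%) and 12 stronger (0.724%, against 10.4%).

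The clusters also hold microRNA genes, of which the miR-196 family, known to repress HOX messages, sits next to group 9 and 10 genes in 3 clusters. The members share the seed AGGUAGU, shown in capitals in the RefSeq mature sequence (GRCh38.p14 annotation). They were singled out after the lists had been read.

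miR-196a-5p, from MIR196A1 in HOXB and MIR196A2 in HOXC: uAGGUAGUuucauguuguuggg
miR-196b-5p, from MIR196B in HOXA: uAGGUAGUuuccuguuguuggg

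MIR196B (chr7:27209099-27209183, at the HOXA side switch) had 72 listed pairs within 3 kb in H4 and 63 in H4 88-1, against 26 in 42MGBA and 23 in 42MGBA 53-1. MIR196A1 (chr17:46709852-46709921) had 84, 77, 17 and 13, and MIR196A2 (chr12:54385522-54385631) had 55, 61, 44 and 34. The HOXB copy thus had the widest gap between the H4 and the 42MGBA lists of the 3.

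Genes that act on or with HOX proteins were counted by their pairs. At the starts of 52 Polycomb, trithorax, caudal, TALE cofactor, cohesin and CTCF genes, 1 of 230 merged pairs was called stronger in H4 88-1 than in H4 (0.435%, against 1.94% of all pairs), at the Polycomb gene CBX7, and none weaker (against 2.17%). In 42MGBA 53-1 against 42MGBA, 8 of 174 were called stronger (4.60%, against 1.61%), all at MEIS2, and 1 weaker (0.575%, against 2.45%), at NIPBL, a cohesin loader. MEIS2, which encodes a homeodomain cofactor of HOX proteins, had 23 listed pairs in H4 and 17 in H4 88-1, against 7 in 42MGBA and 47 in 42MGBA 53-1, with strongest values of 7.89, 6.74, 5.59 and 9.99. At the starts of 56 other homeobox genes, 4 of 294 merged pairs were called stronger in H4 88-1 (1.36%) and 12 weaker (4.08%), of which 10 were at DLX5, a limb and forebrain gene. In 42MGBA 53-1 the counts were 5 stronger (1.45%) and 11 weaker (3.19%) of 345. At 31 neighbours of the clusters, whose pairs include those with HOX anchors, 25 of 904 were called stronger (2.77%) and 9 weaker (0.996%) in H4 88-1, and 11 (1.94%) and 5 (0.883%) of 566 in 42MGBA 53-1.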

How the data were processed

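Hi-C of 4 cell lines was made by the authors with 2 replicates per line and an Arima kit. Reads were trimmed to 36 bp and mapped to hg19 with Bowtie, and unique pairs without duplicates were corrected with HiCorr and enhanced with DeepLoop (tool versions not given in the sources used here). The deposited lists hold the 300000 strongest 5 kb anchor pairs of each line, replicates pooled, with a loop strength (a signal with no counts or depth). The 12 RNA-seq samples were not analysed here.

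From these lists (Python 3.11.15, pandas 2.3.3, numpy 2.4.6), HOX pairs were taken by window, and starts within 3 kb of an anchor came from GENCODE release 44 on hg19. Each comparison merged the 100000 strongest pairs of both lists, set absent pairs to the lowest strength of their list, and called a centred residual of a regression through the origin past a z-score of 1.96. The exact form of the regression was an assumption. The code was tested on simulated data. Named pairs were the strongest of each cluster in each list, the largest z-score of each sign in each comparison, and pairs called alike in both isogenic pairs. Named genes were the best connected of each cluster, and those with few or no pairs were named after their values were seen, as were individual partner genes, further HOXC8 pairs and microRNAs. The members and gene lists were chosen with earlier results of these data known. Alternatives were other regressions, scales, list depths, windows, start distances and a 1.5-fold rule. A few items are not reported here.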

Additional observations from a re-analysis of the deposited data

Results flagged for a closer look

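The median log2 ratio of loop strength in the corrected line to its parent had opposite signs in the 2 isogenic pairs at 3 clusters. It was 0.15 at HOXB in H4 88-1 against H4 and -0.12 in 42MGBA 53-1 against 42MGBA. At HOXC it was 0.47 and -0.09, and at HOXD 0.17 and -0.16. The medians of all merged pairs also had opposite signs, at 0.07 and -0.11, and so did those of chromosome 17 (0.13 and -0.07), chromosome 12 (0.13 and -0.17) and chromosome 2 (0.14 and -0.08). The difference between the isogenic pairs was not tested, since each line has 1 pooled list.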

How the results depend on the processing

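No paired analysis was possible because each line has 1 list that pools both replicates, which also leaves no replicate to leave out. The lists give no depth, and read totals from other sources were not used here. The number of HOX pairs called in H4 88-1 against H4 was 64 of 1770 (50 stronger and 14 weaker, against 1.94% and 2.17% of all pairs). It became 128 with an intercept in the regression (128 and 0, against 2.88% and 1.35%). On the z-score of the log2 ratio it was 16 (12 and 4, against 2.01% and 1.86%). With the 200000 strongest pairs merged it was 163 of 2710 (105 and 58, against 2.43% and 2.60%). It was 41 with log2 ratios centred by chromosome (35 and 6, against 2.26% and 2.14%). Among pairs of similar size it was 20 (15 and 5, against 2.36% and 2.06%), and by the 1.5-fold rule 92 (86 and 6, against 8.74% and 2.16%). In 42MGBA 53-1 against 42MGBA the number was 16 of 1036 (7 and 9, against 1.61% and 2.45%). It became 31 with an intercept (26 and 5, against 2.58% and 1.73%), with the balance turned, and 9 on the log2 scale (0 and 9, against 1.51% and 2.25%). With 200000 pairs it was 52 of 1741 (12 and 40, against 2.02% and 2.94%). It was 8 by size (0 and 8, against 1.86% and 2.41%) and 47 by the 1.5-fold rule (0 and 47, against 1.46% and 10.2%). For 42MGBA against H4 it was 142, and became 39 with an intercept and 69 by chromosome, both with the direction turned, 60 on the log2 scale, 290 with 200000 pairs, 36 by size and 572 by 1.5-fold. For 42MGBA 53-1 against H4 88-1 it was 126 of 1657 (3 and 123, against 1.92% and 2.09%). It became 35 with an intercept (34 and 1, against 3.71% and 0.178%) and 27 by chromosome (18 and 9, against 2.69% and 2.02%), both turned. On the log2 scale it was 44 (0 and 44, against 1.12% and 1.53%), and with 200000 pairs 255 of 2623 (9 and 246, against 2.45% and 2.70%). It was 35 by size (0 and 35, against 1.26% and 1.58%) and 806 by 1.5-fold (12 and 794, against 10.4% and 24.5%). The cause was not tested. Among the 100000 strongest pairs, HOX pairs numbered 1526 in H4 and 1547 in H4 88-1, against 922 in 42MGBA and 865 in 42MGBA 53-1, with a median size of 458 kb in H4 (433 kb in H4 88-1). Windows wider by 20 kb gave 3243, 3156 and 2190 in the first 3 lines. Pairs with both anchors in 1 cluster numbered 16, 3, 99 and 78. With neighbours joined, the median HOX size in 42MGBA 53-1 was 392 kb. Of these and the other main counts and sizes, 36 values under alternatives stayed close, 31 moved and 5 turned direction. Most of those that stayed close were counts of genes with a pair at a start site. Among the called counts more moved or turned than stayed close, and all 5 turns were there. No called pair named by the rule was called in the opposite direction under an alternative. A change of sign with loss of the call was not counted as a turn. Most calls of named pairs were lost on other scales: of 14 in H4 88-1 against H4, 13 on the log2 scale, 11 by chromosome, 13 by size and 10 by 1.5-fold, and of 9 in 42MGBA 53-1 against 42MGBA, 8, 8, 9 and 6.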

Other observations

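Some partner genes, picked after their values were seen, had pairs that the comparisons above do not describe. No pair of the first 3 was strong enough to be merged. GPR84, a receptor for fatty acids, had 6 HOXC pairs at its start in H4 and 5 in 42MGBA and none in either corrected line, with strengths of up to 5.54 and 5.51. ZNF385A, a zinc finger gene next to it, had 1 in H4, 4 in 42MGBA and none in the corrected lines. Its H4 pair had a strength of 4.38, under the 4.44 limit of the H4 88-1 list, and its 42MGBA pairs reached 5.72. Over all of HOXC, 4 of 336 pairs (1.19%) were in both mutant lists alone, against 1.57% of all pairs. HIBADH had 4 HOXA pairs at its start in H4 and 1 in H4 88-1, against 9 in 42MGBA and 12 in 42MGBA 53-1, none stronger than 5.38. TTLL6, a tubulin-modifying enzyme gene beyond the group 13 end of HOXB, had 45 HOXB pairs in H4 and 75 in H4 88-1, against 11 in 42MGBA and 13 in 42MGBA 53-1. HOX pairs of 1000 kb or more numbered 66 in H4 (2.17%, against 4.99% of the whole list) and 55 in H4 88-1 (1.83%, against 2.75%). There were 29 in 42MGBA (1.40%, against 3.39%) and 13 in 42MGBA 53-1 (0.677%, against 2.09%). The share was thus lower than that of the whole list in every line, and both shares were lower in each corrected line than in its parent.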
